A study of Mus musculus with 10 samples.

Results

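The genes described here are 9 genes that carry the interferon signal from the cell surface to the genome: the receptor chains Ifnar1 and Ifnar2, the kinase Jak1, the signal transducer Stat2, and the interferon regulatory factors Irf1, Irf2, Irf7, Irf8 and Irf9. They were chosen by symbol, with earlier results of these data known. They make up 9 of the 18193 genes that non-control probe sets name by a single symbol. All 16 probe sets that carry 1 of these symbols were taken, of 45037 non-control probe sets. RNA came from LSK/CD48- bone marrow cells, a fraction sorted to enrich for haematopoietic stem cells, of 5 Mll-deficient mice (Mx1-cre;Mll F/F) and 5 control mice (Mll F/F without cre), each hybridised to 1 Affymetrix Mouse Genome 430 2.0 array. The mice were 8-week-old females of B6.SJL-Ptprca Pep3b/BoyJ background. Mll is the histone methyltransferase now named Kmt2a, and its loxP-flanked alleles were present in both groups. Both groups received 3 injections of pI:pC, a double-stranded RNA mimic that induces interferon, given every 48 hours (10 µg/g body weight with a further 50 µg), and marrow was harvested on day 6. The Mx1 promoter that drives cre is itself switched on by interferon in many cell types, and as only the Mll-deficient mice carried it, cre and loss of Mll cannot be told apart. No uninjected mice were analysed here, so the values compare 2 interferon-exposed groups and do not measure the induction itself.

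Type I interferon binds a receptor of Ifnar1 and Ifnar2, whose cytoplasmic tails hold the kinases Tyk2 and Jak1. The kinases phosphorylate Stat proteins, and Stat2 with a partner Stat and Irf9 forms the complex ISGF3, which enters the nucleus and binds interferon-stimulated response elements (ISRE) at antiviral genes. Stat dimers bind a second element, the gamma-activated site (GAS), from which Irf1 is induced. Irf1 activates and Irf2 competes with it at the same elements, Irf7 amplifies interferon production, and Irf8 directs monocyte, dendritic and B cell fates. In blood stem cells, interferon drives quiescent cells into division, and Irf2 is known to restrain that signal.

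Several of these genes hold, upstream of their own starts, matches to ISRE or GAS, the 2 elements of the pathway, and 4 such windows are shown. The sequences are the 250 bases before the annotated start, 5′ to 3′ on the gene's strand, from RefSeq on GRCm38.p6. Capitals mark matches to ISRE (GAAA, any 2 bases, then GAAA again) or to GAS (TTCNNNGAA), searched on both strands. All 9 genes had at least 1 such window, 12 in all, since Irf1, Irf8 and Irf9 each had 2 annotated starts.
Stat2 upstream sequence, chr10:128270248-128270497, plus strand: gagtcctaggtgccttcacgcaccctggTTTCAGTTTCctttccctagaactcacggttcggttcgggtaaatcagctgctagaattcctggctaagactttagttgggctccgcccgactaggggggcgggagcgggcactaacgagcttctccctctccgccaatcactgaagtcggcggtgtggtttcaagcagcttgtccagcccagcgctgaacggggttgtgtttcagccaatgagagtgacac
Irf1 upstream sequence, chr11:53769764-53770013, plus strand: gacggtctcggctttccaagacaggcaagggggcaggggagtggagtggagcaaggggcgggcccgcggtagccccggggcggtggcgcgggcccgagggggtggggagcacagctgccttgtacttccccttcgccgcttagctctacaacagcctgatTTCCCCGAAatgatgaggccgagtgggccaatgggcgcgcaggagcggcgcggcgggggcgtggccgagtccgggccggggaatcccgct
Irf2 upstream sequence, chr8:46739495-46739744, plus strand: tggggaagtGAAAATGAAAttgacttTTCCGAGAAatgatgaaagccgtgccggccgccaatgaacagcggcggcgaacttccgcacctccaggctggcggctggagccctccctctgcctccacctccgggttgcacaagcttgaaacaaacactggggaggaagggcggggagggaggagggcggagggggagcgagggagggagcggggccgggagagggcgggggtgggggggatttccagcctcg
Irf8 upstream sequence, chr8:120736108-120736357, plus strand: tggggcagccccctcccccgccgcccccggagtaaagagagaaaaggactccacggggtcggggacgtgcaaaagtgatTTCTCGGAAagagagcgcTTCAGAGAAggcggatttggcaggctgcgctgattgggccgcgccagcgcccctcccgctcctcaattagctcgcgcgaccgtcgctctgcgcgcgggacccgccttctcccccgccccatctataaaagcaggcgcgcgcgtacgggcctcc
The Stat2 window held 1 ISRE match, on the minus strand, 222 to 213 bases before the start. The Irf2 window held an ISRE match 241 to 232 bases and a GAS match 224 to 216 bases before the start, which did not overlap. The first Irf1 window held 1 GAS match at 90 to 82 bases, and the first Irf8 window held 2, at 171 to 163 and at 153 to 145 bases. Ifnar2 held 1 GAS match, at 214 to 206 bases, and the windows of Ifnar1, Jak1, Irf7 and Irf9 held no match to these letters. Among 32851 windows of the same length, 2.98% held an ISRE match and 7.02% a GAS match. A match describes the letters and does not show binding.

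None of the 16 probe sets passed the test between Mll-deficient and control cells. The groups were compared on log2(signal + 16) with limma over 27022 probe sets, of which 3.28% passed a Benjamini-Hochberg adjusted p of 0.05 (573 or 2.12% higher and 314 or 1.16% lower in Mll-deficient cells, or 556 and 127 after centring each array on its median). All 16 probe sets were bright enough to be tested, with a mean past percentile 40 of the array, and 0 of 16 passed. At an unadjusted p under 0.05 there were 3, of Irf2, Jak1 and Stat2, all with a difference below 0, where 10.3% of all tested probe sets had such a p with a difference below 0. The difference, Mll-deficient minus control, was below 0 for 10 of 16 probe sets, against 57.1% of all tested, and its median was -0.24, against -0.07 over all tested. The signs of the 16 did not change under quantile normalization or median centring. The groups were fully apart for 1 of 16 probe sets, against 5.68% of all tested. At 5 arrays a group the 95% intervals of the differences ran from 0.84 to 1.56 in width on the log2 scale, so a probe set that missed the threshold is not shown to be equal in the groups.

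**Figure D1:**
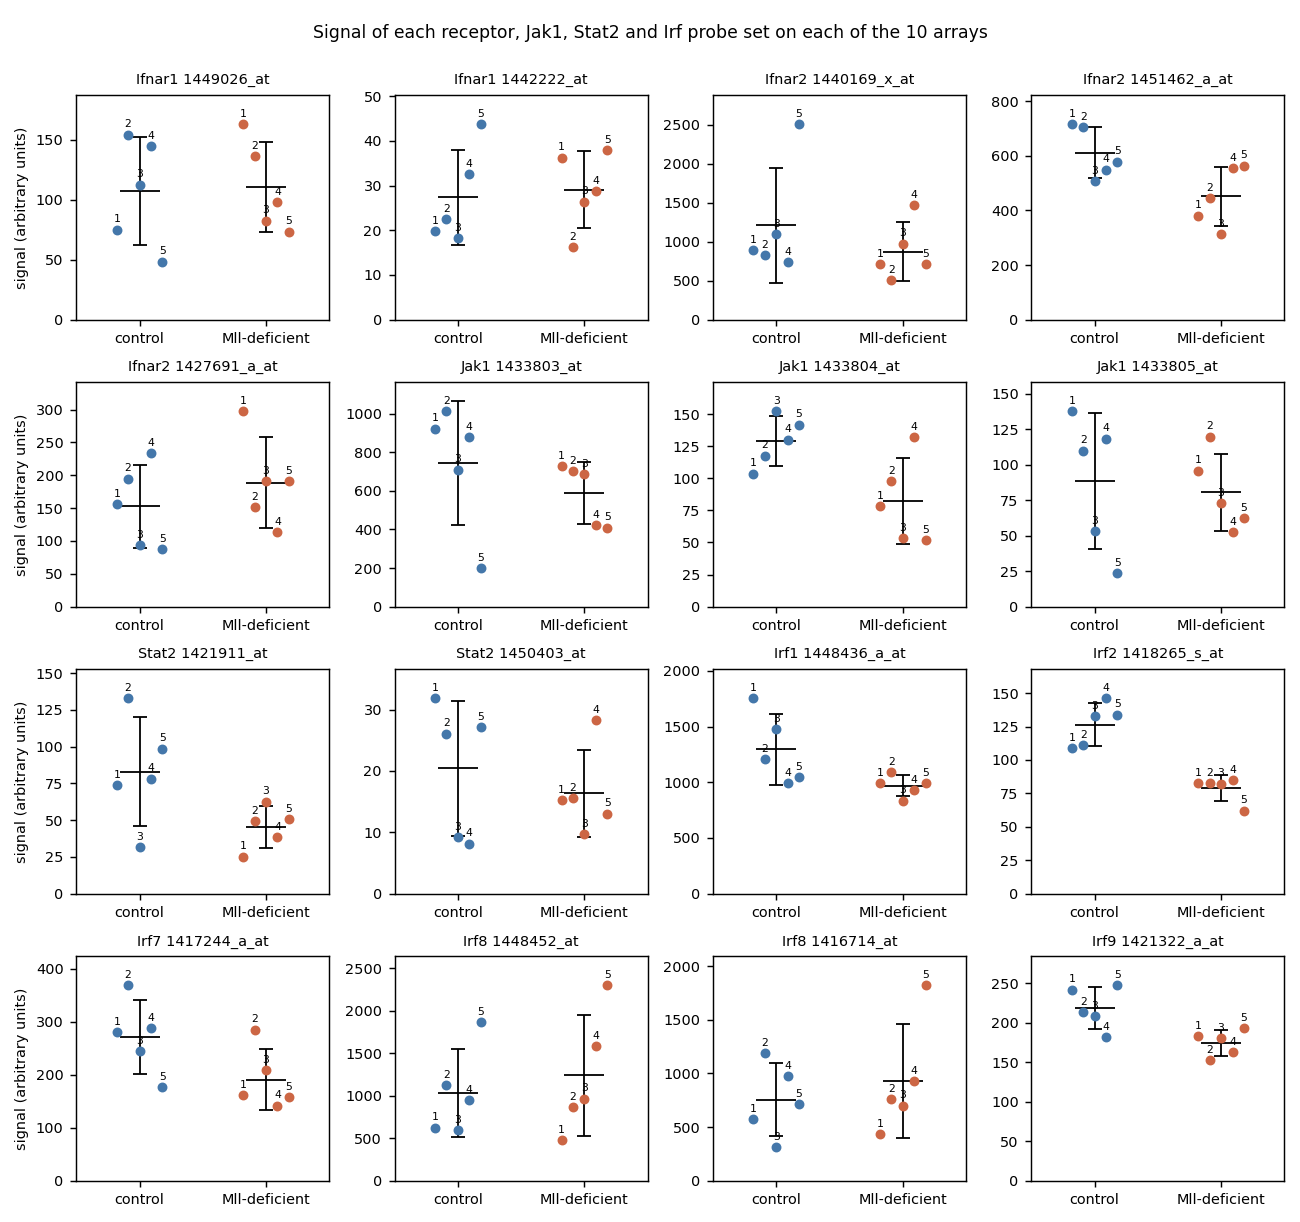
Signal in arbitrary units (vertical axes, linear, from 0) of each of the 16 probe sets on the 5 control arrays (blue) and 5 Mll-deficient arrays (orange), with replicate numbers, group means (wide ticks) and SD (bars). Irf2 is the only probe set whose groups do not overlap, with controls from 109 to 146 and Mll-deficient samples from 62.1 to 84.9.

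**Figure D2:**
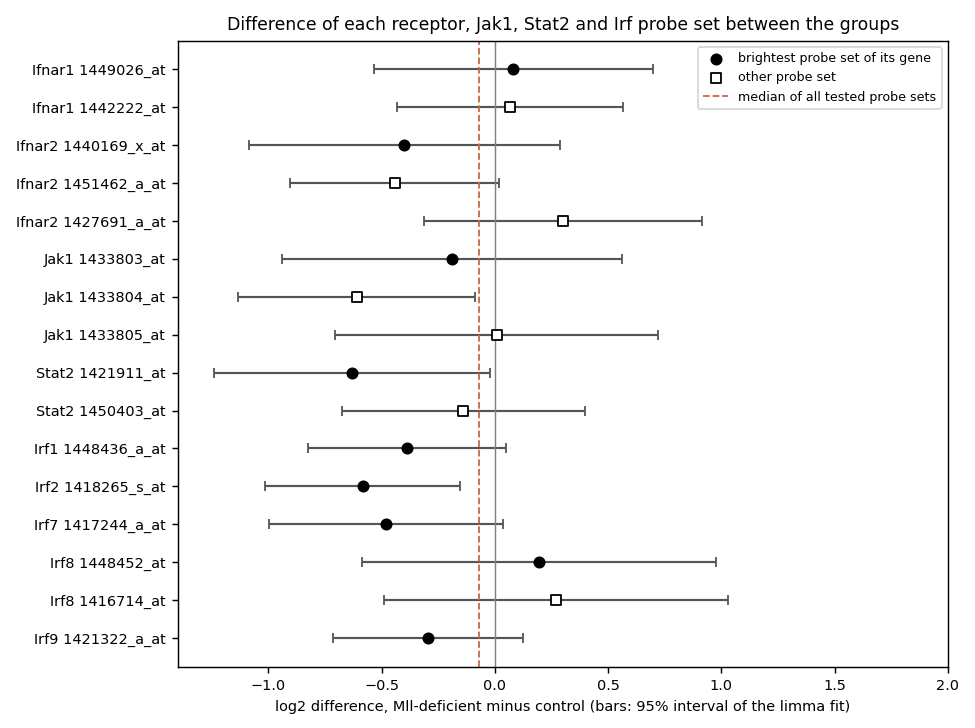
Difference of each probe set on the log2 scale, Mll-deficient minus control, with the 95% interval of the limma fit, and the median of all tested probe sets as a dashed line. The intervals of Irf2 1418265_s_at, Jak1 1433804_at and Stat2 1421911_at lie below 0 before any adjustment, and none passed after it.

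The 10 arrays had the same trimmed mean signal, 150.001 units, and medians from 18.1 to 28.9. Control replicate 5 was the least like its group (mean correlation 0.918, against 0.946 to 0.953 for the other 4 controls). It had the highest ratio of 3′ to middle probe sets of Gapdh and Actb, at 5.19 on the log2 scale (controls 2.95 ± 1.41, Mll-deficient samples 3.14 ± 0.60, SD, n = 5 each). The ratio measures 3′ bias, and as the RNA was amplified, RNA integrity and amplification cannot be told apart in it. The brighter Kmt2a probe set averaged 260 ± 85.8 units among controls and 216 ± 97.2 among Mll-deficient mice (SD, n = 5 each, limma adjusted p = 0.736 in the fit with no filter), and its place relative to the deleted part was not analysed here, so it does not check the labels. Of the sort and stem cell markers, Ptprc, which encodes CD45, fell by 0.70 ± 0.19 (SE, limma adjusted p = 0.0487) and the stem cell factor Hlf fell by 1.48 ± 0.39 (SE, limma adjusted p = 0.0458), and 8 of 10 did not pass. With no filter neither passed (adjusted p = 0.0810 and 0.0727). The median of these 10 markers was -0.50, with 8 of 10 differences below 0 and 5 of 10 at an unadjusted p under 0.05. The brightest probe sets of all genes had a median of -0.04, with 53.4% below 0 and 1.3% passing lower. Of all tested probe sets, 10.3% had an unadjusted p under 0.05 with a difference below 0. The part of this marker shift in the members' differences was not tested. Against the sort label, granule genes of neutrophils were bright in both groups, with Ngp at 20237 ± 4849 among controls and 21911 ± 4742 among Mll-deficient mice (SD, n = 5 each), and 0 of 12 neutrophil markers passed. Of 11 T and natural killer cell markers, Cd3e, Cd3g, Cd4 and Cd8b1 lay below the filter and 7 above it, among them Cd3d at 27.2 ± 13.7 and 35.9 ± 18.3 units and Nkg7 at 447 ± 145 and 871 ± 278 units in controls and Mll-deficient samples (SD, n = 5 each).

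No probe set of the receptor genes passed, and the arrays of the groups overlapped in each. Ifnar1, the chain that holds Tyk2, read 75.1, 154, 113, 145 and 48.5 units in control replicates 1 to 5 and 163, 137, 82.6, 98.2 and 73.4 in Mll-deficient replicates 1 to 5 (1449026_at). The groups overlapped widely, and the log2 difference was 0.08, with a 95% interval from -0.53 to 0.70 (limma adjusted p = 0.920). The second Ifnar1 probe set, 1442222_at, was dim, between 16.2 and 43.7 units on the 10 arrays, and differed by 0.07 (95% interval -0.43 to 0.57, limma adjusted p = 0.921).

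Ifnar2, the chain that holds Jak1, had 3 probe sets that did not point one way. The probe set 1451462_a_at read 716, 705, 508, 550 and 579 units among controls and 382, 446, 314, 554 and 565 among Mll-deficient mice. Mll-deficient replicates 1 to 3 lay below all controls and replicates 4 and 5 among them, a difference of -0.44 ± 0.22 (SE, limma adjusted p = 0.298). The brightest, 1440169_x_at, whose suffix marks probes that may bind other transcripts, differed by -0.40 ± 0.33 (SE, limma adjusted p = 0.562), with control replicate 5 at 2504 units and the other controls between 737 and 1093. Without that array the difference was -0.10. The third, 1427691_a_at, differed by 0.30 ± 0.29 (SE, limma adjusted p = 0.644), or by 0.13 without Mll-deficient replicate 1 and 0.46 without control replicate 4. The group-centred correlation between 1440169_x_at and 1427691_a_at over the 10 arrays was -0.67, so probe sets of this 1 gene ranked the mice differently.

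Jak1, the kinase shared by the receptors for interferons and many cytokines, had 3 probe sets annotated to 1 sequence record. The brightest, 1433803_at, read 922, 1011, 709, 876 and 201 units among controls and 730, 703, 687, 421 and 409 among Mll-deficient mice. Control replicate 5 was the lowest of all 10 arrays, and the difference was -0.19 ± 0.36 (SE, limma adjusted p = 0.835), or -0.60 without that array (limma adjusted p = 0.159, and from 0.159 to 0.976 over the fits that left out 1 array). The probe set 1433804_at read 104, 118, 152, 130 and 142 units in controls and 78.3, 97.8, 53.6, 132 and 51.6 in Mll-deficient samples. Of the Mll-deficient samples 4 lay below all controls and replicate 4 lay among them, a difference of -0.61 ± 0.25 (SE, limma adjusted p = 0.194). The third, 1433805_at, differed by 0.01 ± 0.34 (SE, limma adjusted p = 0.994), and its sign turned in several alternative fits.

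Part of the spread of several probe sets between mice moved with the 3′ to middle ratio, most for those of Jak1, Irf7 and Ifnar2. After each group's mean was subtracted, the ratio had a correlation over the 10 arrays of -0.95 with Jak1 1433803_at, -0.96 with Jak1 1433805_at, -0.85 with Irf7 and 0.81 with Ifnar2 1440169_x_at. Without control replicate 5 these were -0.86, -0.89, -0.80 and 0.54 over 9 arrays. A correlation of at least 0.9 in size was seen for 3.40% of all tested probe sets, and of at least 0.8 for 11.4%. Next in size were -0.70 for Ifnar1 1449026_at, 0.65 for Ifnar1 1442222_at, -0.62 for Ifnar2 1427691_a_at and 0.56 for Irf8 1448452_at. Without control replicate 5 these were -0.39, 0.33, -0.46 and 0.30. Probe sets of 1 gene thus moved with the ratio in opposite directions for Ifnar1 and Ifnar2. Over the 10 arrays Jak1 1433804_at had 0.19 and Irf2 also 0.19. With the ratio as a covariate 0 of 16 probe sets passed in limma, and the differences were -0.07 ± 0.18 for Jak1 1433803_at, -0.42 ± 0.19 for Irf7 and -0.59 ± 0.19 for Irf2 (SE, limma adjusted p = 0.858, 0.176 and 0.0674).

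**Figure D3:**
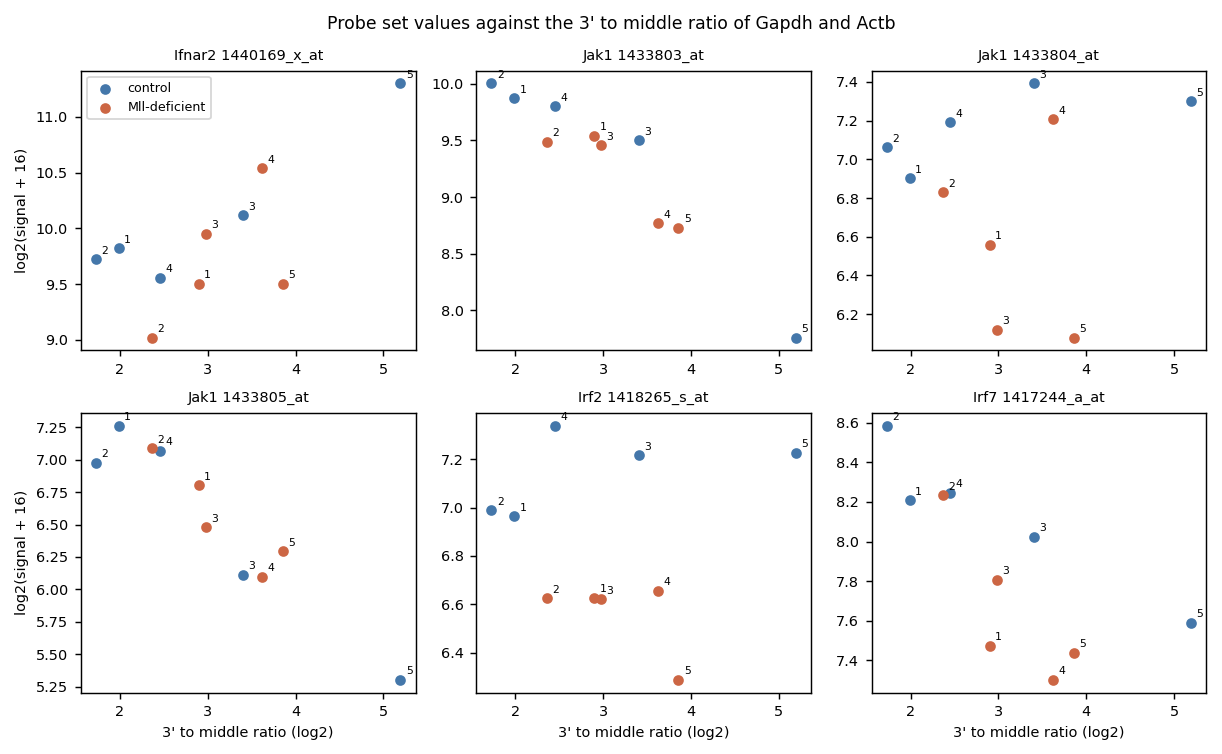
Probe set values on the log2(signal + 16) scale (vertical axes, not from 0) against the log2 ratio of 3′ to middle probe sets of Gapdh and Actb (horizontal axes), 1 point for each array with its replicate number, controls in blue and Mll-deficient samples in orange. Jak1 1433803_at and 1433805_at and Irf7 are lower where the ratio is higher, and for Irf2 the groups do not overlap.

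Stat2, the transducer specific to interferon signalling, read 73.8, 133, 31.5, 78.3 and 98.7 units in controls and 25.2, 49.3, 62.7, 38.7 and 50.9 in Mll-deficient samples (1421911_at). Of the controls 4 lay above all Mll-deficient samples, and control replicate 3 lay below 4 of them. The difference was -0.63 ± 0.29 (SE), with a 95% interval from -1.24 to -0.02 before adjustment (limma adjusted p = 0.255). The other probe set, 1450403_at, is annotated to the same record, read between 8.17 and 31.8 units, and differed by -0.14 ± 0.25 (SE, limma adjusted p = 0.832).

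Irf9, the DNA-binding subunit of ISGF3, had the narrowest spread within groups of the 16 probe sets, with coefficients of variation of 12.2% in controls and 9.50% in Mll-deficient samples. It read 242, 213, 209, 182 and 247 units among controls and 183, 153, 181, 163 and 194 among Mll-deficient mice. Control replicate 4 lay below Mll-deficient replicates 1 and 5, and otherwise the groups were apart. The difference was -0.30 ± 0.20 (SE, 95% interval -0.72 to 0.12, limma adjusted p = 0.465), or 81.4% of the control level on the log2(signal + 16) scale.

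Irf7, the interferon-induced factor that amplifies interferon gene transcription, read 280, 368, 244, 288 and 177 units among controls and 162, 285, 208, 142 and 158 among Mll-deficient mice. The groups overlapped: Mll-deficient replicates 2 and 3 lay within the control range, and only control replicates 2 and 4 lay above all Mll-deficient samples. The difference was -0.48 ± 0.25 (SE, limma adjusted p = 0.315), and over the fits that left out 1 array it lay between -0.63 and -0.37.

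Irf2, the competitor of Irf1 that restrains interferon responses in stem cells, was the gene whose groups did not overlap. It read 109, 111, 133, 146 and 134 units in controls and 82.8, 82.8, 82.4, 84.9 and 62.1 in Mll-deficient samples. All 5 Mll-deficient samples lay below all 5 controls, as in 2.42% of all tested probe sets. The means were 126 and 79.0 units (n = 5 each), a difference of -0.58 ± 0.20 (SE, 95% interval -1.01 to -0.15 before adjustment), or 66.7% of the control level on the log2(signal + 16) scale. It did not pass over all probe sets (limma adjusted p = 0.130, and from 0.0268 to 0.271 over all alternatives). The lowest of these, which passed, came from the fit with 1 averaged value a gene, where the difference was the same and the SE was 0.14. With 1 probe set, Irf2 had unchanged values in that fit. The smaller SE came from the variance prior over all genes, so this pass adds no evidence from Irf2 itself. Irf2 had 1 probe set, whose suffix marks probes shared by more than 1 transcript, so no second measurement was at hand.

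Irf1, the activator that interferon induces, read 1752, 1209, 1476, 991 and 1046 units among controls and 996, 1088, 836, 929 and 991 among Mll-deficient mice. Control replicates 4 and 5 lay within the Mll-deficient range, and replicates 1 to 3 lay above it. The coefficient of variation was 24.5% in controls and 9.62% in Mll-deficient samples. The difference was -0.39 ± 0.21 (SE, 95% interval -0.82 to 0.05, limma adjusted p = 0.344).

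Irf8 varied more between mice than between groups. Its brighter probe set, 1448452_at, read 624, 1125, 598, 948 and 1866 units among controls and 479, 871, 966, 1584 and 2297 among Mll-deficient mice. The coefficients of variation were 50.0% and 57.4%, and the difference was 0.19 ± 0.37 (SE, 95% interval -0.59 to 0.98, limma adjusted p = 0.839). The other probe set, 1416714_at, had a group-centred correlation of 0.79 with it over the 10 arrays and differed by 0.27 ± 0.36 (SE, limma adjusted p = 0.757). Mll-deficient replicate 5 was the highest on both, at 2297 and 1819 units, and without it the differences were -0.075 and -0.011. Of 17 tested markers of the monocytes and dendritic cells that need Irf8, 0 passed in limma and 3 had an unadjusted p under 0.05, among them Fcgr1, an antibody receptor (-1.34 ± 0.47, SE, limma adjusted p = 0.130), and Itgam, which encodes CD11b (-0.73 ± 0.26, SE, limma adjusted p = 0.140). The median of the 17 was -0.22, with 13 below 0, against -0.04 and 53.4% for the brightest probe sets of all genes. The dendritic cell markers did not point one way: Siglech, Itgax and Batf3 differed by 0.16, 0.26 and 0.27, and Ccr9 and Zbtb46 by -0.03 and -0.13. Over all tested probe sets, 10.3% had an unadjusted p under 0.05 with a difference below 0. The summed signal of the 19 markers of this list on the array ran from 15089 to 30680 units among controls and from 17094 to 22073 among Mll-deficient mice. The brightest by far were Lyz2 (means 11889 and 10675) and Csf1r (6696 and 5467, with 19208 in control replicate 5). The sum mostly reads these genes, and the part of such cells in the Irf8 values was not tested. Among controls, Lyz2 read 12508, 15311, 10703, 15207 and 5717 units. The neutrophil granule gene Ltf read 10874, 13951, 10193, 14903 and 4746 units on the same arrays. The part of neutrophil RNA in the sum was not tested. In sorted bulk RNA, fewer cells of a type and less RNA per cell cannot be told apart.

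Probe sets of different members did not vary together as a block. Over 111 pairs of probe sets of different genes, the group-centred correlation over the 10 arrays ran from -0.88 to 0.79 with a median of -0.02. The highest joined Jak1 1433805_at and Irf7 and the lowest joined Jak1 1433805_at and Ifnar2 1440169_x_at, all of which moved with the 3′ to middle ratio. The 9 pairs of probe sets of the same gene also ran widely, from -0.67 (Ifnar2) to 0.90 (Jak1). These values therefore do not show whether the genes themselves vary apart. The pairs share the 10 arrays and their scaling.

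The other genes of the pathway were taken from lists made with earlier results of these data known, each gene by its brightest probe set. Over all genes, 4.25% of 12580 such probe sets passed, 2.95% higher and 1.3% lower, and their median difference was -0.04. For the 9 members it was -0.39, with 7 of 9 below 0, against 53.4% of all genes, and 0 passing. Of the ligands, Ifnb1 and 7 alpha interferon genes lay below the filter, and the one tested, Ifng, differed by -0.06 ± 0.30 (SE, limma adjusted p = 0.943).

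Among 15 tested genes of other receptors, kinases, Stat and Irf factors, 0 passed in limma, 1 had an unadjusted p under 0.05, and the median was -0.15. That 1 was Stat3, the transducer of interleukin 6 and related cytokines, at -0.79 ± 0.33 (SE, limma adjusted p = 0.214). It read 625 ± 257 units among controls and 347 ± 150 among Mll-deficient mice (SD, n = 5 each). Il10rb, a receptor chain shared by interleukin 10 and lambda interferon, had the next smallest p, at -0.44 ± 0.22 (SE, limma adjusted p = 0.301). Over all tested probe sets, 10.3% had an unadjusted p under 0.05 with a difference below 0.

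Of 19 tested feedback regulators and cofactors, 1 fell and 18 did not pass, with 18 of 19 differences below 0. Their median was -0.25, and 3 had an unadjusted p under 0.05. Over all genes, 1.3% of brightest probe sets passed lower and 53.4% lay below 0. Over all tested probe sets, 10.3% had an unadjusted p under 0.05 with a difference below 0. Ep300, a histone acetyltransferase that acts as coactivator of Stat2, fell by 1.07 ± 0.28 (SE, limma adjusted p = 0.0450), from 650 ± 191 to 309 ± 118 units (SD, n = 5 each). Without a filter its adjusted p was 0.0663. Usp18, an interferon-induced protein that binds Ifnar2 and blocks Jak1, read 177 ± 22.3 and 104 ± 38.2 units (SD, n = 5 each), a difference of -0.74 ± 0.24 (SE, limma adjusted p = 0.0993).

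Of 36 tested ISGF3 target genes, 2 fell and 34 did not pass, with 29 differences below 0, a median of -0.44 and 15 at an unadjusted p under 0.05. Rsad2, an antiviral enzyme, fell by 1.30 ± 0.25 (SE, limma adjusted p = 0.0107) and Rtp4 fell by 0.95 ± 0.25 (SE, limma adjusted p = 0.0453). Of 22 tested targets of gamma interferon and Irf1, 2 fell and 20 did not pass, with 20 differences below 0, a median of -0.33 and 6 at an unadjusted p under 0.05. They were the interferon-inducible GTPase genes Iigp1 (-1.20 ± 0.28, SE, limma adjusted p = 0.0248) and Gbp6 (-0.77 ± 0.20, SE, limma adjusted p = 0.0448). Without a filter the adjusted p of Rtp4 was 0.0637 and that of Gbp6 was 0.0666. Over all genes, 1.3% of brightest probe sets passed lower, 53.4% lay below 0 and the median was -0.04. Over all probe sets, 10.3% had an unadjusted p under 0.05 with a difference below 0. That share was not computed for brightest probe sets. No test of the difference between targets and the signalling genes was run.

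**Figure D4:**
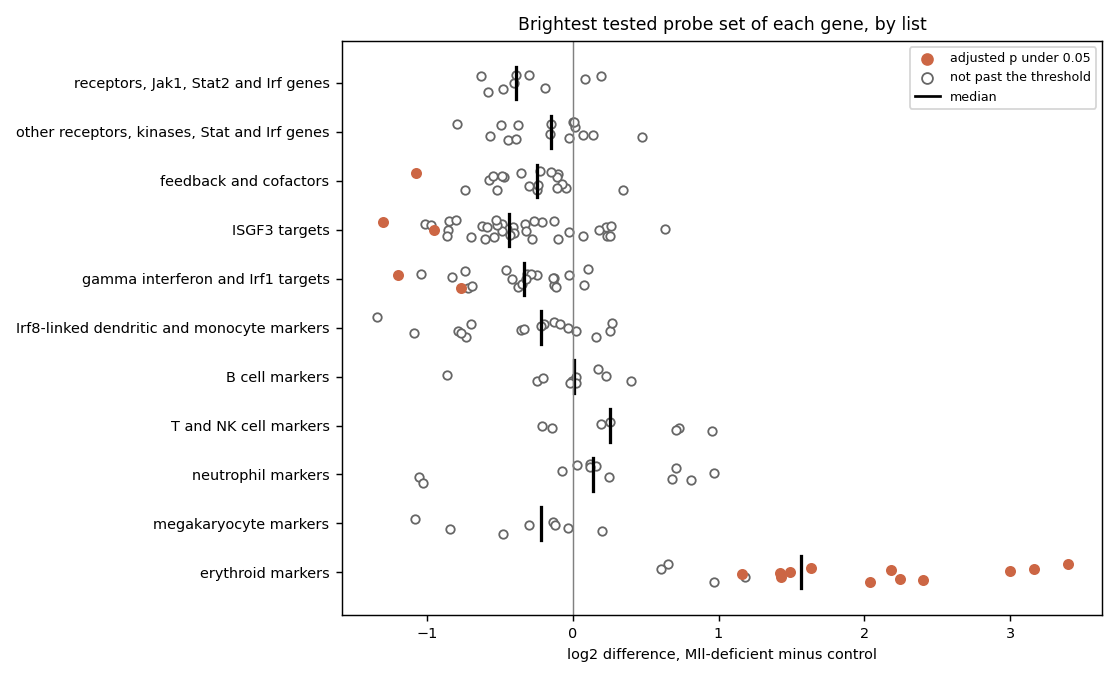
Log2 difference, Mll-deficient minus control (horizontal axis), of the brightest tested probe set of each gene (points, filled where the adjusted p was under 0.05) by gene list (vertical axis), with each list's median as a bar; vertical scatter only separates points. The 9 receptor, Jak1, Stat2 and Irf genes have no filled point and a median of -0.39, and 12 of 16 erythroid markers lie above 0 with a filled point.

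The mean log2 value of the 36 ISGF3 targets was 8.09, 8.27, 7.87, 8.32 and 7.73 in control replicates 1 to 5 and 7.68, 8.05, 7.53, 7.43 and 7.63 in Mll-deficient replicates 1 to 5. Mll-deficient replicate 2, the highest of its group, was also the highest of its group for Irf7. After each group's mean was subtracted, the correlation with this mean over the 10 arrays ran from -0.89 to 0.85 among the 16 probe sets. It was largest in size for Ifnar2 1440169_x_at, at -0.89, and then 0.85 for both Irf7 and Jak1 1433805_at. Ifnar1 1449026_at and Jak1 1433803_at each had 0.69, Ifnar2 1427691_a_at 0.60, Irf9 -0.57, Stat2 1421911_at 0.25 and Irf2 -0.07. The target mean itself had a correlation of -0.78 with the 3′ to middle ratio, and without control replicate 5 the values over 9 arrays were -0.88 for Ifnar2 1440169_x_at, 0.79 for Irf7, 0.82 for Jak1 1433805_at and -0.73 for the ratio. The part of 3′ bias in these relations was not tested.

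Markers of other cells were compared beside these values. Of 16 erythroid markers 12 rose, against 2.95% of all genes, and 4 did not pass. Those with the smallest p were Klf1 (3.00 ± 0.27, SE, limma adjusted p = 3.08e-05), Ermap, Cldn13, Aqp1, Rhd and Gata1, in that order, which is not the order of their differences. The markers' summed signal ran from 4808 to 9972 units among controls and from 19556 to 22332 among Mll-deficient mice. The part of this shift in the differences of Irf2, Stat2 and Jak1 was not tested. Among 10 B cell markers (median 0.01), 7 tested T and natural killer cell markers (median 0.26), 12 neutrophil markers (median 0.14) and 8 megakaryocyte markers (median -0.22), 0 passed in limma, and 0, 1, 6 and 2 had an unadjusted p under 0.05. The differences with the smallest p in each list were -0.86 for Ebf1 and 0.40 for Blnk (B cell), 0.96 for Nkg7 and 0.71 for Gzmb (T and natural killer cell), -1.03 for Mmp9 and 0.68 for Prtn3 (neutrophil), and -1.08 for Vwf and -0.84 for Gp1bb (megakaryocyte). The neutrophil median covers opposite differences at an unadjusted p under 0.05. The primary granule genes Elane, Ctsg, Mpo and Prtn3 differed by 0.97, 0.81, 0.71 and 0.68, and the late granule genes Mmp8 and Mmp9 by -1.06 and -1.03. The rest lay nearer 0: Ltf, Ngp, Camp, Lcn2, S100a8 and S100a9 differed by 0.25, 0.12, 0.03, -0.07, 0.16 and 0.12. The later granule genes thus did not fall together. Over all tested probe sets, 10.3% had an unadjusted p under 0.05 with a difference below 0. The share above 0 was not computed.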

How the data were processed

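The deposited values are linear signal intensities for each probe set, and the submitters' processing notes name MAS5 5.0. The authors' values are scaled to 1 trimmed mean on each array. Each mouse gave 1500 to 10000 sorted cells, whose RNA was amplified, per the labels. Symbols came from a platform annotation updated through RefSeq (GRCm38.p6), and probe sets with several symbols named no gene. Of 45101 probe sets 64 were controls. Values were transformed as log2(signal + 16), which understates differences of dim probe sets, and compared with limma 3.58.1 in R 4.3.3 (intensity trend, two-sided, Benjamini-Hochberg over probe sets). The fit was tested on simulated data with independent noise, which hold no effect shared by the probe sets of an array. The members and lists were chosen with earlier results of these data known. Named were all 9 members, Kmt2a, from each list the genes past the threshold (up to 6 with the smallest p) or, where fewer than 2 passed, the 2 with the smallest p, and the 3 genes most like Stat2, Irf7 and Irf9. The other T cell, natural killer cell, neutrophil, monocyte and dendritic cell markers named were chosen after their values were seen. Other genes of some lists were not analysed here. Alternatives changed the offset, scaling, filter, probe set choice, variance prior, array weights, replicate block, 3′ to middle ratio covariate and arrays used. For arrays, their number limits the precision.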

Additional observations from a re-analysis of the deposited data

Results flagged for a closer look

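In 2 of 32 sets of 5 arrays, 1 array lay far from the other 4 by Dixon's ratio of its gap to the range on the log2(signal + 16) scale, against a 95% critical value of 0.71, which chance passes in about 1 of 20 such sets. Irf2 read 62.1 units in Mll-deficient replicate 5, where the other 4 Mll-deficient samples read between 82.4 and 84.9 (ratio 0.901). Without that array the Irf2 difference was -0.51 (limma adjusted p = 0.271, and from 0.136 to 0.271 over the fits that left out 1 array). Jak1 1433803_at read 201 units in control replicate 5, where the other controls read between 709 and 1011 (ratio 0.776), and that array had the highest 3′ to middle ratio.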

How the results depend on the processing

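The count of 0 passing probe sets of the 9 genes held under every fit that left out 1 array (range 0 to 0). It also held under every alternative except with each gene's probe sets averaged, where 1 of 9 passed (Irf2, -0.58, limma adjusted p = 0.0268). The values of Irf2, with 1 probe set, were unchanged in that fit, and only its SE was smaller. Of all probe sets, 887 passed, 588 with no filter and 2433 with the 3′ to middle ratio as a covariate. Leaving out 1 array gave 308 to 1129. For controls the count was 402 without replicate 1, 415 without replicate 3 and 436 without replicate 4. For Mll-deficient mice it was 383 without replicate 3 and 308 without replicate 5. Among probe sets near 0, Jak1 1433805_at turned to -0.029 with offset 64 and -0.19 with array weights, and Ifnar1 1449026_at to -0.022 with array weights. Leaving out 1 array gave -0.13 to 0.22 for Ifnar1 1449026_at, -0.011 to 0.19 for Ifnar1 1442222_at, -0.30 to 0.19 for Jak1 1433805_at, -0.075 to 0.48 for Irf8 1448452_at and -0.011 to 0.50 for Irf8 1416714_at. With no change of sign, it gave -0.61 to -0.10 for Ifnar2 1440169_x_at, 0.13 to 0.46 for Ifnar2 1427691_a_at, -0.60 to -0.036 for Jak1 1433803_at and -0.27 to -0.027 for Stat2 1450403_at. The cause of these changes was not tested. With the replicate number as a block 781 probe sets passed and 0 of the 16. Same-numbered arrays did not pair (correlations of deviations from -0.18 to 0.24, and 1 of 10 arrays correlated best with their own number). The dimmest, Ifnar1 1442222_at and Stat2 1450403_at, lay below the 60th percentile.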

Other observations

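The genes whose brightest probe set was most like that of Stat2, Irf7 or Irf9 over the 10 arrays were sought among 12571 other tested genes, by the correlation after each group's mean was subtracted. Those most like Stat2 were Adat1 (0.93), Gmppa (0.93) and Susd4 (0.90). Those most like Irf7 were Naa40 (0.95), Atp8a1 (0.94) and Ganc (0.94), and those most like Irf9 were Adam15 (0.97), Ccdc87 (0.96) and Prkg2 (0.95). None of these 9 genes was in the lists of interferon targets. Those lists hold only 36 and 22 tested genes, so this absence does not show that the members vary apart from their targets. None of the 9 genes passed between the groups in limma (adjusted p from 0.293 to 0.952).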
